A study of Homo sapiens with 24 samples.

Results

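The effect of putting full-length SETD2 back into SETD2-deleted cells was examined in 4 RNA-seq libraries, 2 of KO cells expressing SETD2 FL (replicates 3 and 4) and 2 of KO cells labelled untreated (replicates 2 and 4), out of 24 samples in the series, 10 of them RNA-seq libraries. The 4 libraries were chosen by their labels alone, and all genes of their table were considered. All cells were HEK293T, a human embryonic kidney line that carries the SV40 large T antigen. KO stands for a line in which SETD2 was deleted, and SETD2 FL for the same line transfected with the full-length SETD2 coding sequence. Per the study's text the constructs carry a GFP or Halo tag and a CMV promoter, which differs from the native SETD2 promoter. The KO libraries of this table carry no label of a vector control, so SETD2 expression and transfection cannot be told apart. The same table holds 2 libraries in which the KO line was given SETD2 C (the part from residue 1404 to residue 2564), and a separate first table holds 2 untreated WT and 2 untreated KO libraries. The labels do not tie these RNA-seq replicates to separate cultures, so p-values may measure only the spread between libraries, which may be technical.

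SETD2 is the enzyme that trimethylates lysine 36 of histone H3 (H3K36me3) along the bodies of transcribed genes, where it travels with elongating RNA polymerase II. The mark is read by proteins involved in splicing, mismatch repair and DNA methylation, and SETD2 is a tumor suppressor often lost in kidney cancer. The genes that moved in this comparison include targets of p53, the DNA damage-activated transcription factor, and targets of HSF1, the factor that raises chaperone genes when proteins misfold.

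The upstream sequences of 5 genes that rose are shown because they carry short motifs of HSF1 or p53. Each window is the 250 bases before the RefSeq start on GRCh38.p14, read 5′ to 3′ on the gene's strand, and positions are counted from -1 at the last base. HSPA6 (chr1:161524290-161524539, plus strand), HSPA1B (chr6:31827488-31827737, plus strand), DNAJB1 (chr19:14518398-14518647, minus strand) and DNAJA1 (chr9:33025023-33025272, plus strand) have heat shock elements in capitals. AEN (chr15:88621090-88621339, plus strand) has a p53 half-site in capitals.
HSPA6: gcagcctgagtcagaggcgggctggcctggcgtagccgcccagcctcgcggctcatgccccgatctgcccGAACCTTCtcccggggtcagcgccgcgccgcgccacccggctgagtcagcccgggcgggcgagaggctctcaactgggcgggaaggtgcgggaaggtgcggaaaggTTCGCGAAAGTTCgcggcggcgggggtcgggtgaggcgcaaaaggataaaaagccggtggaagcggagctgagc
HSPA1B: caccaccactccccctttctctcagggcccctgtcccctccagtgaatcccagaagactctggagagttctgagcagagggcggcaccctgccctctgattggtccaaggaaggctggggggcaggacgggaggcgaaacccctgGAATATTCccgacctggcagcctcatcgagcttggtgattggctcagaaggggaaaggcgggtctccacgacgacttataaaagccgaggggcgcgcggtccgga
DNAJB1: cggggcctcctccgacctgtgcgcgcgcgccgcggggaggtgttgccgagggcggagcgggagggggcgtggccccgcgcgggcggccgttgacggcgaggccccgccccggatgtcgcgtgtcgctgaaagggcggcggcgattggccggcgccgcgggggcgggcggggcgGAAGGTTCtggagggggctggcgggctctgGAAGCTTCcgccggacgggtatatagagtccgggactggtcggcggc
DNAJA1: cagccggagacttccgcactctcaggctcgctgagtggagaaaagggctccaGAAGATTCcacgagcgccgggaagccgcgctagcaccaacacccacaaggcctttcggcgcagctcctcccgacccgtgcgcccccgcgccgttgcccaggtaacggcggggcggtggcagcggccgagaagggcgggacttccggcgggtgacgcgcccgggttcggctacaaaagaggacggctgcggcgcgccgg
AEN: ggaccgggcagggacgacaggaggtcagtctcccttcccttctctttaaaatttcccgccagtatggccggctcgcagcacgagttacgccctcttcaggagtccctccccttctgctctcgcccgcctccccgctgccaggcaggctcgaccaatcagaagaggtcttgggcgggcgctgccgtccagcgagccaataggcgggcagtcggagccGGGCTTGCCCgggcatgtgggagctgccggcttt

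The heat shock element was searched as GAANNTTC or TTCNNGAA, which is the same search on both strands, and the p53 motif as the half-site decamer on both strands. HSPA6 held 3 elements, starting at -180, -74 and -69, the last of which overlap each other. DNAJB1 held 2, at -77 and -47, HSPA1B held 1 at -105 and DNAJA1 held 1 at -198. The AEN half-site starts at -34, and PLK2 held another at -132. A gene was counted if any of its windows matched. Among the heat shock genes with a window, 14 of 22 held an element, or 63.6%. This compares with 11.7% of the 11055 tested genes with a window and 14% of all 27305 genes with one. Among the p53 target genes, 6 of 28 held a half-site, or 21.4%, against 6.54% of tested genes and 6.8% of all genes with a window. Of the 28 genes higher at an adjusted p of at most 0.05 in the comparison described next, 20 had a window. Of these, 6 held a heat shock element (30%), among them the p53 targets DDB2, at -184, and TP53I3, at -219. DNAJB1 has further windows, which held none. A match describes these letters only.

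SETD2 itself (ENSG00000181555, chromosome 3 from 47016428 to 47164113, 21 exons) checked the labels first. Its level in TPM, the share of a library's transcripts scaled to a fixed total, was 12.0 and 12.2 in KO, against 439 and 422 with SETD2 FL, a 33.9-fold difference. Reads of the introduced coding sequence count toward this gene. The transcript was not lower in KO cells: in the first table it was at 16.2 and 16.3 in KO and 12.6 and 14.8 in WT, so transcript level alone does not show the deletion.

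Beside SETD2 few genes passed the test, and p53 target and heat shock genes were among them. Differences are given as log2(scaled TPM + 0.5), SETD2 FL minus KO, from limma fitted on 15933 genes, and this scale understates changes of low genes. After Benjamini-Hochberg adjustment, 12 genes rose by 2-fold or more with an adjusted p of at most 0.05 (0.0753% of genes tested) and 1 fell (0.00628%), together 0.0816%. Genes were tested if 2 or more of 6 libraries reached a TPM of 0.5. Of those that rose, HSPA6, LIF and AC073140.1 reached it in no KO library, so the filter itself favoured a rise. With a TPM of at least 1 required in every library, 5 genes rose by 2-fold or more. With the adjusted p alone, 28 rose (0.176%) and 5 fell (0.0314%), of which 15 of the 33 had a mean TPM above 10 in both groups. Without adjustment, 1384 genes had a p under 0.05 and a higher value with SETD2 FL (8.69%) and 1151 a lower one (7.22%). The 2 SETD2 FL libraries lay above both KO libraries for 24.8% of genes and below both for 23.4%, together 48.2%. All 28 genes that rose and all 5 that fell were among these. Selection by a small p favours this, so lack of overlap is no separate support for them. The median absolute log2 difference was 0.11 between groups, 0.10 between the KO replicates and 0.10 between the SETD2 FL replicates. The calls depended on every library. With the adjusted p alone, 4 genes rose without KO replicate 2, 3 without KO replicate 4, 5 without SETD2 FL replicate 3 and 5 without SETD2 FL replicate 4. In these limma fits 0 genes fell, and the numbers with an unadjusted p under 0.05 in either direction were 1982, 1895, 1676 and 2298 in the same order. SETD2, GDF15 and AL671762.1 passed in each of them. A rank test of 2 against 2 cannot go below an exact p of 0.333. In bulk RNA, more transcript per cell and more cells with the transcript cannot be told apart.

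**Figure D1:**
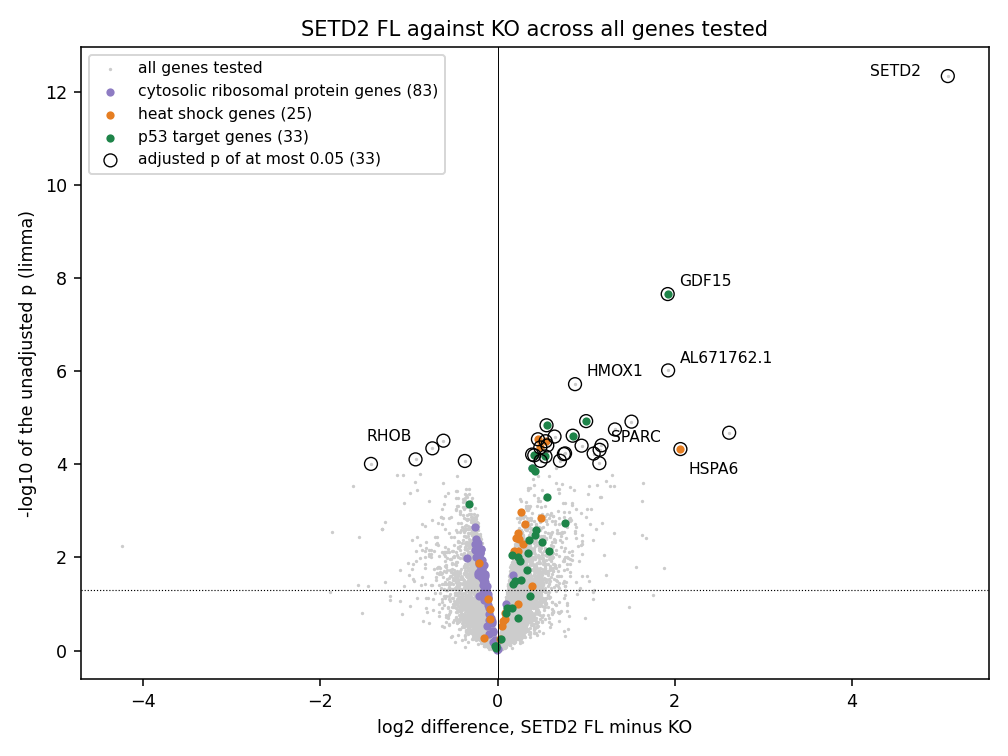
Each point is a gene, with its log2 difference (SETD2 FL minus KO) on the x axis and -log10 of the unadjusted limma p on the y axis; the dotted line marks a p of 0.05 and open circles mark the 33 genes with an adjusted p of at most 0.05. SETD2 stands alone at 5.08, p53 targets and heat shock genes lie mostly right of 0, and ribosomal protein genes lie mostly left of it.

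**Figure D2:**
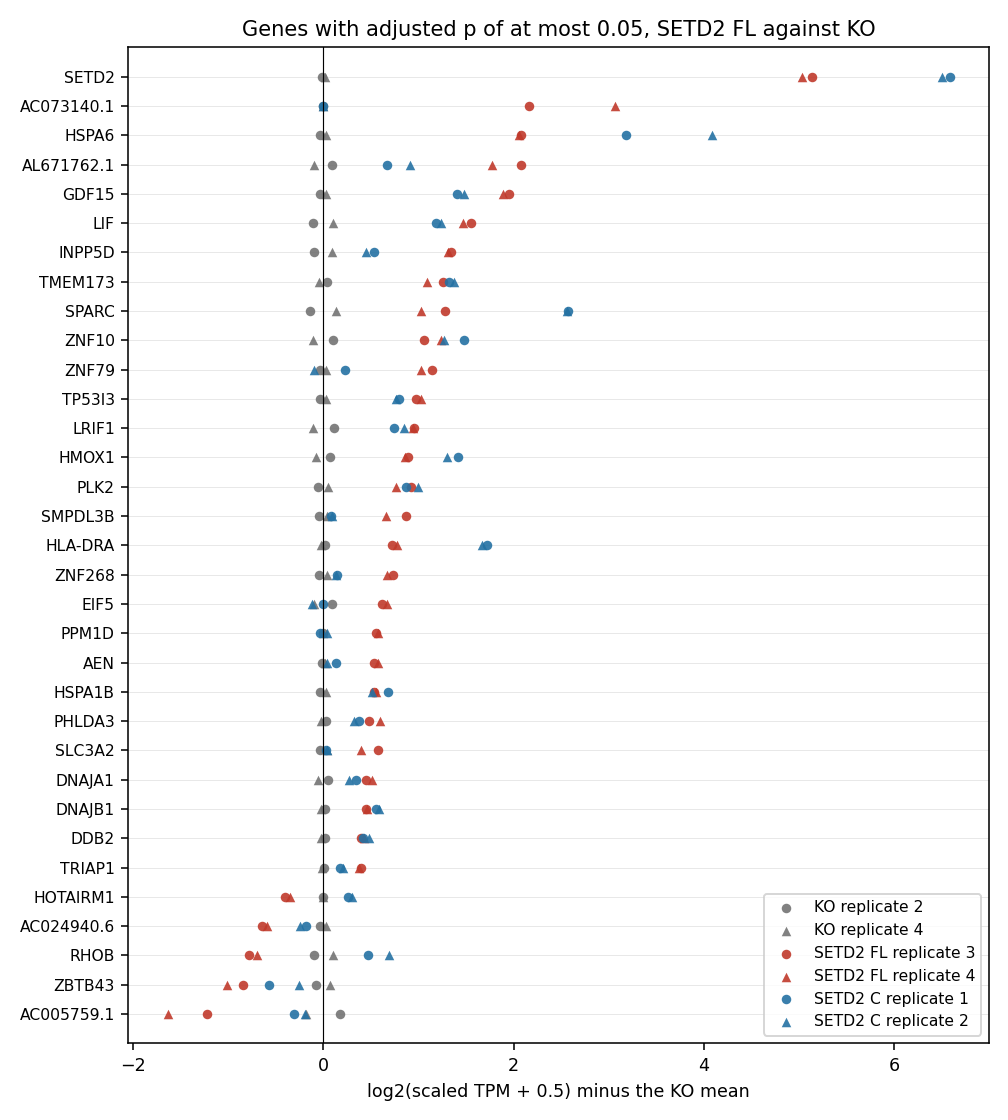
Each row is one of the 33 genes with an adjusted p of at most 0.05, and each point one library, as log2(scaled TPM + 0.5) minus the mean of the KO libraries; grey is KO, red SETD2 FL and blue SETD2 C. Both SETD2 FL libraries lie to one side of both KO libraries in every row, while the SETD2 C libraries lie beyond them for SETD2, HSPA6 and SPARC and near KO for ZNF79, EIF5 and PPM1D.

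Among the p53 target genes, 6 of 33 tested members rose and none fell at an adjusted p of at most 0.05. Without adjustment 23 had a p under 0.05 and a higher value (69.7%) against 1 lower, beside 8.69% and 7.22% of all genes tested. The median difference over the 33 was 0.34, against 0.01 over all genes tested, and the medians of the single SETD2 FL libraries against the KO mean were 0.36 and 0.32. The 6 calls became 1 when any 1 of the 4 libraries was left out, and 19 to 21 members then had a p under 0.05 and a higher value. With the SETD2 C libraries left out of the fit, 1 member was called. In that fit 23 had a p under 0.05 and a higher value, against 7.87% of all genes. The list was assembled with earlier results of these data known. GDF15, a secreted stress cytokine that is also an ATF4 target, was at a TPM of 2.77 and 2.88 in KO and 12.3 and 12.1 with SETD2 FL. Its difference was 1.92 (SE 0.09, adjusted p = 0.000176 from limma), the next smallest p after SETD2. TP53I3, a quinone oxidoreductase linked to p53-dependent death, was at 2.08 and 2.17 in KO and 4.61 and 4.99 with SETD2 FL, a difference of 1.0 (SE 0.10, adjusted p = 0.0322). Neither gene's groups came near each other.

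PLK2, a polo-like kinase of the stress checkpoint, was at 4.85 and 5.22 in KO and 9.93 and 9.23 with SETD2 FL, and rose by 0.85. AEN, an exonuclease that acts in apoptosis, was at 39.1 and 39.6 in KO and 56.8 and 60.9 with SETD2 FL, and rose by 0.55. PHLDA3, an inhibitor of Akt signalling, rose by 0.54, from 14.1 and 13.5 to 19.4 and 21.8. DDB2, the damage-recognition subunit of nucleotide excision repair, rose by 0.41, from 51.7 and 50.1 to 66.7 and 71.2. The groups did not overlap for any of these 4, as for 48.2% of all genes tested. Adjusted p from limma ranged from 0.0330 for AEN to 0.0399 for PHLDA3. RPS27L, a ribosomal protein paralog induced by p53, and FDXR, a mitochondrial reductase, missed the threshold, with differences of 0.39 (adjusted p = 0.0543) and 0.42 (adjusted p = 0.0603).

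Several of the best-known targets, named here after their values were seen, showed smaller or less certain differences. MDM2, a ubiquitin ligase of the p53 feedback loop, was at 50.7 and 42.6 in KO and 73.6 and 65.2 with SETD2 FL (0.55, adjusted p = 0.0955). CDKN1A, the p21 cell cycle inhibitor, was at 28.0 and 29.9 against 31.9 and 34.4 (0.17, adjusted p = 0.283). BAX, a pore-forming death effector, differed by 0.16 (adjusted p = 0.190). The groups of CDKN1A and BAX did not overlap, as for 48.2% of all genes tested. The apoptosis genes BBC3 and APAF1 differed by 0.04 and -0.02. CCNG1, a cyclin-like p53 target, was the member with a lower value and a p under 0.05, at 283 and 304 in KO and 226 and 250 with SETD2 FL (-0.32, adjusted p = 0.107). Outside the list, 2 further genes that p53 is known to induce rose and are pointed out after the fact. TRIAP1, a small p53-regulated survival protein, rose by 0.39 (60.5 and 58.9 in KO, 78.6 and 80.4 with SETD2 FL), and PPM1D, the phosphatase that switches p53 signalling off, rose by 0.56 (12.8 and 12.6 in KO, 18.7 and 19.8 with SETD2 FL).

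**Figure D3:**
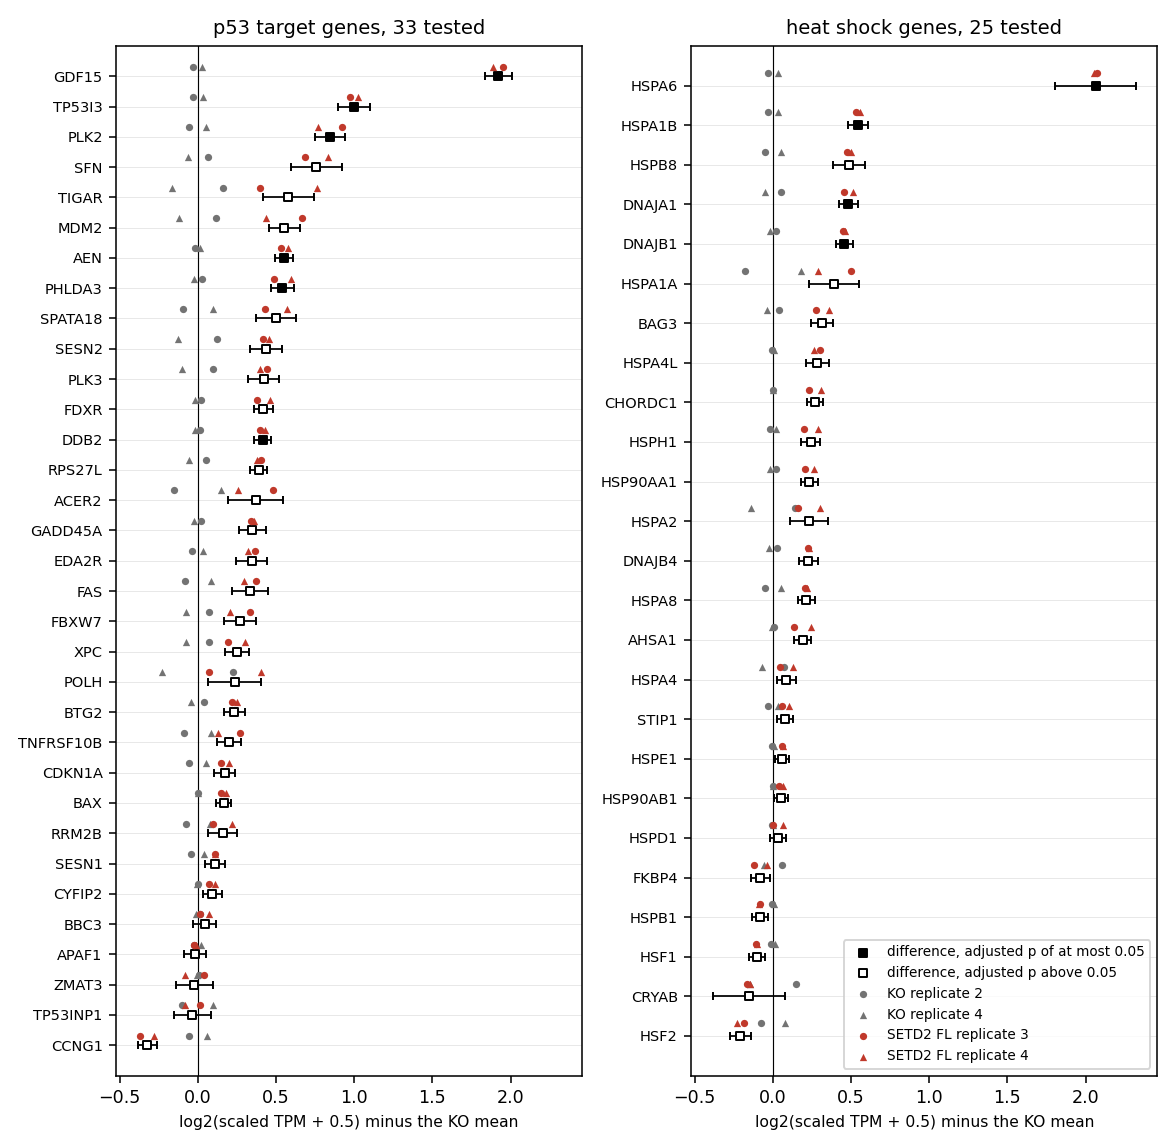
Every tested member of the p53 target list (33) and the heat shock list (25) is a row; squares give the log2 difference (SETD2 FL minus KO) with its standard error, filled where the adjusted p was at most 0.05, and the points just above give each library against the KO mean. GDF15 and HSPA6 lead the lists, and CCNG1 and HSF2 close them on the negative side.

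Heat shock genes also held several calls. Of 25 tested members, 4 rose and none fell, and 1 rose with the SETD2 C libraries left out of the fit. Without adjustment 14 members had a p under 0.05 and a higher value (56.0%) against 1 lower, beside 8.69% and 7.22% of all genes tested. The median difference of the 25 members was 0.23, with 0.20 and 0.24 for the single SETD2 FL libraries. The 4 calls became 0 in limma when any 1 of the 4 libraries was left out, with 13 or 14 members then at a p under 0.05 and a higher value. HSPA6, an HSP70 that is nearly silent without stress, was at a TPM of 0.17 and 0.20 in KO and 2.31 and 2.36 with SETD2 FL, a difference of 2.06 (SE 0.26, adjusted p = 0.0370 from limma). HSPA1B, the main inducible HSP70 and by far the most abundant of the 4, was at 352 and 365 in KO and 515 and 545 with SETD2 FL (0.54, SE 0.06, adjusted p = 0.0363). DNAJB1 and DNAJA1, HSP40 co-chaperones of HSP70, also rose. DNAJB1 was at 39.7 and 38.1 against 52.99 and 55.6 (0.46), and DNAJA1 at 75.1 and 69.3 against 98.2 and 107 (0.48).

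HSPA1A shares nearly all its sequence with HSPA1B, so reads may be split between them and both values are uncertain. HSPA1A, named for that reason, was at 3.52 and 4.62 in KO and 5.86 and 5.20 with SETD2 FL (0.39, adjusted p = 0.295). AL671762.1 (ENSG00000285565, chromosome 6 from 31828834 to 31839719) overlaps HSPA1B on the same strand and is uncertain for the same reason. It was at 2.79 and 2.35 in KO and 12.3 and 10.2 with SETD2 FL (1.93, adjusted p = 0.0051), and stood at 203 to 335 in the first table, where HSPA1B ranged from 612 to 1179. HSPA8, the main constitutive HSP70, had a difference of 0.21 (adjusted p = 0.154), HSP90AA1, the inducible HSP90, one of 0.23 (adjusted p = 0.146), and HSPD1 of the mitochondrial chaperonin one of 0.03. HSF1, the factor that drives these genes, was at 54.5 and 55.1 in KO and 50.6 and 52.8 with SETD2 FL (-0.10, adjusted p = 0.372), and its relative HSF2 had a difference of -0.21 (adjusted p = 0.211).

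Genes of the unfolded protein and ATF4 responses, which adapt the endoplasmic reticulum and amino acid supply to stress, were higher in part. Of 34 tested members, 2 rose and none fell, and 16 had an unadjusted p under 0.05 and a higher value (47.1%) against 2 lower, with a median difference of 0.14. The single-library medians were 0.22 for replicate 3 and 0.10 for replicate 4, and without replicate 3 the number of members with a higher value and a p under 0.05 was 5, against 5.16% of all genes. GDF15, also counted above, and SLC3A2 were the 2. SLC3A2, the heavy chain that carries amino acid transporters to the membrane, was at 130 and 136 in KO and 197 and 182 with SETD2 FL (0.49, adjusted p = 0.0435). Its light chain partner SLC7A5 was at 65.2 and 64.8 against 89.1 and 81.4 (0.37, adjusted p = 0.109). HSPA5, the reticulum chaperone BiP, differed by 0.27 (adjusted p = 0.286) and DDIT3, the death-linked factor CHOP, by 0.10 (adjusted p = 0.619). ASNS and PHGDH, ATF4 targets for asparagine and serine synthesis, pointed the other way, at -0.16 and -0.19.

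HMOX1, the heme-degrading enzyme raised by oxidative stress and heme, was at 29.8 and 26.6 in KO and 52.3 and 53.2 with SETD2 FL, a difference of 0.87 (SE 0.07, adjusted p = 0.00756 from limma). It was the only NRF2 antioxidant gene of 21 tested to pass. The list had a median of 0.01. At an unadjusted p under 0.05, 2 members were higher (9.52%) and 4 lower (19.0%), beside 8.69% and 7.22% of all genes tested. NQO1, a classical NRF2 target, was at 2.92 and 3.71 in KO and 3.15 and 3.92 with SETD2 FL, with overlapping groups.

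Among secreted, signalling and membrane genes that rose, LIF, INPP5D, TMEM173 and SPARC did so at least 2-fold, each from a TPM below 1. LIF, a cytokine of the interleukin-6 family, was at a TPM of 0.28 and 0.40 in KO and 1.91 and 1.85 with SETD2 FL (1.51, adjusted p = 0.0322). INPP5D, the inositol phosphatase SHIP1 known mainly from blood cells, was at 0.65 and 0.80 against 2.55 and 2.59 (1.32, adjusted p = 0.0355). TMEM173, the DNA-sensing adaptor STING, was at 0.58 and 0.52 against 1.97 and 1.77 (1.17, adjusted p = 0.0370). SPARC, a collagen-binding matrix protein, was at 0.69 and 0.92 against 2.61 and 2.20 (1.15, adjusted p = 0.0370). SMPDL3B, a membrane phosphodiesterase, rose by 0.76, from 5.57 and 5.84 to 10.7 and 9.59. HLA-DRA, the MHC class II alpha chain, rose by 0.75, from 2.22 and 2.13 to 3.88 and 4.20. The groups were apart for all 6 genes, as for 48.2% of all genes tested.

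Zinc finger and chromatin genes that rose were ZNF10, ZNF79, ZNF268 and LRIF1. ZNF10 and ZNF268 are neighbours on chromosome 12 (133130575 to 133159465 and 133181409 to 133214832). ZNF10 was at 0.71 and 0.54 in KO and 1.80 and 2.20 with SETD2 FL (1.15), and ZNF268 at 3.66 and 3.89 against 6.56 and 6.52 (0.70). ZNF79 was at 1.94 and 2.02 against 4.92 and 4.69 (1.08). Most of the family was not called. Of 417 ZNF genes tested, 3 rose, and the median was 0.05. At an unadjusted p under 0.05, 44 were higher (10.6%) and 17 lower (4.08%), beside 8.69% and 7.22% of all genes tested. LRIF1, which binds heterochromatin protein HP1, was at 2.56 and 2.11 in KO and 4.94 and 5.07 with SETD2 FL (0.95, adjusted p = 0.0370). EIF5, a translation initiation factor, rose by 0.64, from 81.1 and 70.9 to 116 and 125. AC073140.1, a single-exon lncRNA, had TPM listed at 0 for KO replicates 2 and 4, against 1.66 and 3.67 with SETD2 FL. It was at 0 in both SETD2 C libraries too. It therefore met the filter only through the SETD2 FL libraries, and its rise is no separate support.

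The 5 genes that fell were 2 protein-coding genes and 3 lncRNAs. RHOB, a stress-inducible small GTPase and the most abundant of them, was at 144 and 164 in KO and 88.5 and 98.2 with SETD2 FL, and fell by 0.74 (SE 0.09, adjusted p = 0.0370 from limma). ZBTB43, a BTB zinc finger factor, fell by 0.93, from 9.98 and 10.97 to 5.61 and 5.11. HOTAIRM1, a lncRNA of the HOXA cluster, fell by 0.37, from 109.3 and 108.8 to 82.3 and 88.9. AC024940.6 fell by 0.61, from 15.8 and 16.3 to 10.1 and 10.9. AC005759.1 (chromosome 19, 18204730 to 18220480) was the only gene to fall at least 2-fold, from 2.23 and 1.63 to 0.54 and 0.30, a difference of -1.43. Over all 2510 lncRNAs tested, 128 had a higher value (5.10%) and 258 a lower one (10.3%) at an unadjusted p under 0.05, and the median was -0.05. Among the 13423 protein-coding genes the shares were 9.36% and 6.65% and the median was 0.01.

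Ribosomal protein genes made up the largest block on the low side without one of them passing the adjusted test. Of 83 tested, 53 had an unadjusted p under 0.05 and a lower value (63.9%) and 2 a higher one, RPS27L among the latter, with a median of -0.16 and single-library medians of -0.17 and -0.15. RPS2 was at 11083 and 10979 in KO and 9095 and 9871 with SETD2 FL (-0.24, adjusted p = 0.156), and RPL13A at 3256 and 3343 against 2718 and 2907 (-0.25, adjusted p = 0.137). TPM is a share of each library, and the ribosomal protein genes held 32.3% and 32.9% of it in KO and 28.9% and 30.2% with SETD2 FL. Over the same libraries the mitochondrially encoded mRNAs went from 6.73% and 5.88% to 10.4% and 7.43%. With quantile normalization the ribosomal median was -0.06 and 6 of 83 members had a lower value at an unadjusted p under 0.05, against 7.37% of all genes. A further setting took mitochondrial genes and SETD2 out of the total and used no other scaling between libraries. There the median of all genes moved from 0.01 to 0.06, against 0.02 with no scaling at all. The ribosomal median in this setting was -0.09, with 19 of 83 members lower against 3.38% of all genes. Without KO replicate 4 the number was 12, against 4.92%. The part of the mitochondrial share in these values was not tested.

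All 13 mitochondrially encoded protein genes had a higher value with SETD2 FL, 11 of them at an unadjusted p under 0.05 (84.6%) and none at the adjusted threshold. Their median difference was 0.45, and the 2 SETD2 FL libraries disagreed in size. Against the KO mean the median was 0.71 in replicate 3 and 0.19 in replicate 4. MT-ND6, a complex I subunit encoded on the light strand, was at 100.7 and 87.2 in KO and 206 and 140 with SETD2 FL (0.83, adjusted p = 0.125). MT-CO3, a cytochrome oxidase subunit, was at 7335 and 6611 against 13092 and 8914 (0.61, adjusted p = 0.178). Without SETD2 FL replicate 3 the list median was 0.19 and 4 members had a p under 0.05, and without KO replicate 4 it was 0.37 and 4.

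Hypoxia-induced genes, the glycolytic and angiogenic targets of HIF1, had a median of -0.14 over 30 tested members. At an unadjusted p under 0.05, 10 had a lower value (33.3%) and 1 a higher one, and none passed the adjusted test. PGK1, a glycolytic kinase, was at 635 and 668 in KO and 539 and 582 with SETD2 FL (-0.24, adjusted p = 0.136). PDK1, which restrains pyruvate oxidation, was at 17.9 and 18.9 against 15.2 and 16.2 (-0.25, adjusted p = 0.168). CA12, a membrane carbonic anhydrase, was the member with a higher value, at 0.37 (adjusted p = 0.194). With no scaling the number of members with a lower value and a p under 0.05 was 6, against 5.05% of all genes. It was 5 without KO replicate 4 (4.92%) or without SETD2 FL replicate 3 (5.36%), and 4 with the total rescaled without mitochondrial genes and SETD2 (3.38%).

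Cell cycle genes showed small differences and no call. G2/M genes had a median of 0.07 over 54 members, with 9 higher (16.7%) and 1 lower (1.85%) at an unadjusted p under 0.05. S phase genes had a median of -0.03 over 43, with 2 higher (4.65%) and 5 lower (11.6%). Over all genes tested these shares were 8.69% and 7.22%. With the total rescaled without mitochondrial genes and SETD2, and no other scaling, 22 G2/M genes were higher and 0 lower at that p. Over all genes these shares were then 15.4% and 3.38%. MKI67, the proliferation antigen, was at 17.9 and 14.3 in KO and 24.4 and 23.1 with SETD2 FL (0.54, adjusted p = 0.109), and MCM5, a replicative helicase subunit, at 109 and 102 against 88.5 and 91.8 (-0.25, adjusted p = 0.123). JUN, an immediate early factor, was at 209 and 232 against 152 and 169 (-0.47, adjusted p = 0.0854). BTG1, an antiproliferative factor, was at 29.6 and 32.2 against 22.7 and 24.9 (-0.39, adjusted p = 0.0998). MMP2, a gelatinase, was at 6.08 and 5.93 against 12.1 and 10.8 (0.86, adjusted p = 0.0834). The groups did not overlap for these 5 genes, as for 48.2% of all genes tested.

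Enzymes and readers of H3K36 methylation gave no call beside SETD2. Of 17 tested methyltransferases and demethylases of this residue only SETD2 passed, and 1 other, NSD3, had an unadjusted p under 0.05, at 37.3 and 35.7 in KO and 31.1 and 32.2 with SETD2 FL (-0.22, adjusted p = 0.268). NSD1 and NSD2, which set the dimethyl state, differed by 0.14 and -0.11, and ASH1L by 0.00. Of 30 readers of the mark and linked repair genes, none passed, and the median was 0.01. At an unadjusted p under 0.05, 4 had a higher (13.3%) and 3 a lower value (10%), beside 8.69% and 7.22% of all genes tested. SRSF3 and SRSF7, splicing factors of the SR family, were at 289 and 281 against 344 and 350 (0.26, adjusted p = 0.0998) and at 212 and 205 against 247 and 258 (0.26, adjusted p = 0.0977). No splicing or hnRNP gene passed the adjusted test. Of 34 tested, 5 had a higher (14.7%) and 0 a lower value at an unadjusted p under 0.05, beside the same 8.69% and 7.22%.

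**Figure D4:**
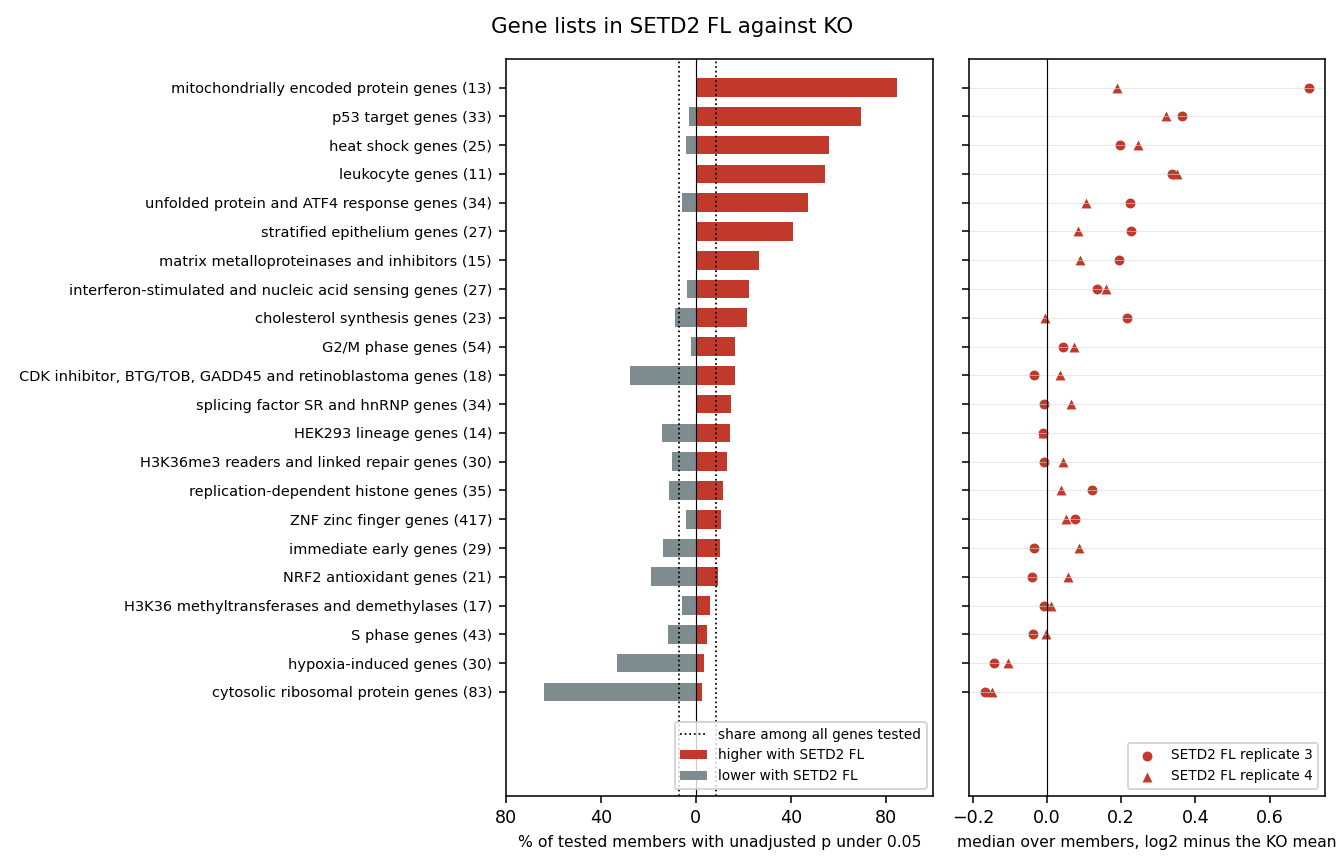
For each list with at least 10 tested members (number in brackets), the left panel gives the percentage with an unadjusted p under 0.05, higher to the right and lower to the left, with dotted lines at the shares among all genes tested, 8.69% and 7.22%; the right panel gives the median of the members in each SETD2 FL library against the KO mean. Mitochondrial, p53 and heat shock genes extend furthest right and ribosomal protein genes furthest left, and the 2 libraries differ most for the mitochondrial genes.

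The labelled cell type was checked against markers. In all 4 libraries the HEK293 lineage genes VIM (638 to 801), NEFM (111 to 126) and LIN28B (25.7 to 29.0) were well expressed and PAX2 was at 0.99 to 1.44, whereas SOX11 was at or below 0.08. PTPRC, CD3E and KRT5, which define leukocytes and stratified epithelium, were listed at 0 throughout, and TP63 was at or below 0.01. The summed TPM of the 30 leukocyte genes nevertheless went from 25.1 and 26.7 to 40 and 40.2, and 6 of 11 tested members had a higher value at an unadjusted p under 0.05, with INPP5D and HLA-DRA called. Of 50 stratified epithelium genes listed, 27 were tested. Of these 11 had a higher and 0 a lower value at an unadjusted p under 0.05, and none passed. Only 15 of the 50, and 5 of the 30 leukocyte genes, reached a TPM of 1 in all 4 libraries. Members near the floor can meet the filter through the libraries in which they are higher. The counts of both lists therefore lean toward higher values. NECTIN4, an adhesion protein, was at 0.41 and 0.66 in KO and 1.5 and 1.67 with SETD2 FL (1.02, adjusted p = 0.0918). Of 46 interferon-stimulated and nucleic acid sensing genes listed, 17 reached a TPM of 1 in all 4 libraries, so the same limit holds. Of the 27 tested, TMEM173 passed. In that list 6 had a higher (22.2%) and 1 a lower value (3.70%) at an unadjusted p under 0.05. Over all genes tested 8.69% were higher and 7.22% lower at this p. ISG15 and OAS1, typical interferon-induced genes, were at 5.64 to 6.49 and at or below 0.04 in the 4 libraries.

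Whether re-expression returned genes toward WT was asked in the first table, whose WT and KO libraries are separate from those above. The tables were normalized separately, so each difference is given against its own KO and the pair was not tested. WT minus KO passed the adjusted test for 661 of 14746 genes, or 4.48% (3.17% higher in WT and 1.32% lower). These 467 higher and 194 lower genes became 140 and 32 without KO replicate 1, 107 and 27 without KO replicate 2, 190 and 93 without WT replicate 1, and 758 and 435 without WT replicate 2. Of the 28 genes that rose with SETD2 FL, 26 were tested there. LRIF1 and SPARC were also higher in WT, while DNAJB1, HLA-DRA, HMOX1, HSPA1B and PLK2 were lower in WT. LRIF1 had similar differences in both comparisons, 0.95 and 0.82. SPARC was at 35.8 and 43.5 in WT and 0.43 and 0.53 in KO of the first table, a difference of 5.45, against 1.15 with SETD2 FL. HMOX1 was at 53.6 and 61.7 in WT and 105.3 and 100.5 in KO of the first table, so that it was lower in WT by 0.70 and higher with SETD2 FL by 0.87. PLK2 differed by -0.99 in WT minus KO and HLA-DRA by -1.17. Of the 5 genes that fell, 1 passed in WT minus KO, AC005759.1, which was higher in WT by 1.29. The p53 list had a median of 0.02 in WT minus KO with 0 members higher and 1 lower at the adjusted threshold. The heat shock list had a median of -0.14 with 0 higher and 6 lower. Other lists had the same sign in both comparisons. The unfolded protein and ATF4 list had a median of 0.26 in WT minus KO with 7 higher and 0 lower. The ZNF list had one of 0.06 with 47 higher and 1 lower. Mitochondrially encoded genes had one of 0.74, with 0 past the threshold. The ribosomal and hypoxia lists, at 0.11 and 0.07, had the opposite sign to SETD2 FL minus KO.

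**Figure D5:**
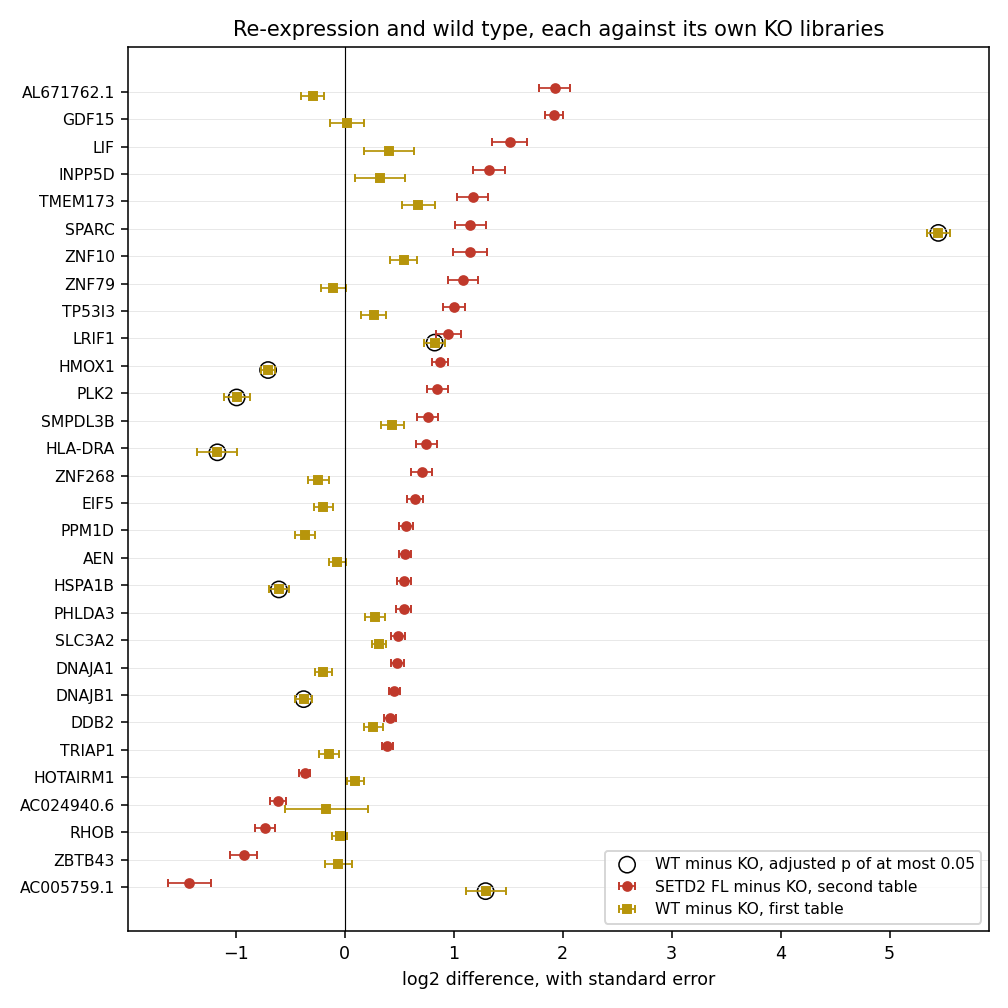
For the genes with an adjusted p of at most 0.05 in SETD2 FL against KO that were also tested in the first table, SETD2 left out, red points give SETD2 FL minus KO and yellow squares WT minus KO, each with its standard error; circles mark an adjusted p of at most 0.05 in WT minus KO. SPARC and LRIF1 lie right of 0 in both, and HMOX1, PLK2, HLA-DRA, HSPA1B and DNAJB1 lie on opposite sides.

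Cells expressing SETD2 C shared the KO libraries and the fit, so their values are set beside those of SETD2 FL. SETD2 C minus KO passed the adjusted test for 36.2% of genes, against 0.207% for SETD2 FL minus KO, and SETD2 C minus SETD2 FL for 38.2%. Of the 28 genes that rose with SETD2 FL, SETD2 among them, 20 also passed as higher in SETD2 C minus KO and 0 as lower. Over all genes tested 21.1% were higher and 15.1% lower there. Of the 5 genes that fell, 1 passed as lower and 2 as higher. Both differences use the same KO libraries, so these counts are not independent. The genes below were chosen on the KO and SETD2 FL libraries, so their SETD2 C levels are given as a description. EIF5 had unscaled levels of 83.9 and 77.7 in these cells, below both SETD2 FL libraries. After scaling, its log2 difference from KO was -0.06 (SETD2 C minus KO). PPM1D stood at 13.7 and 14.5 before scaling, also below both SETD2 FL libraries. Its scaled log2 difference from KO was 0.0035. HSPA6 was at 6.14 and 12.0 and SPARC at 7.87 in each library, above all KO and SETD2 FL libraries. RHOB, at 235 and 276, was above all 4 as well. The hypoxia list, with a median of -0.14 for SETD2 FL, had one of 1.16 for SETD2 C minus KO, and the p53 list had medians of 0.34 and 0.27.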

How the data were processed

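RNA-seq of HEK293T cells was used as the TPM values the authors deposited, 1 table for WT and KO and a second for KO, SETD2 FL and SETD2 C. Per the study's methods and processing notes, reads were demultiplexed with bcl2fastq 2.18, aligned to hg38 with STAR 2.6.1c and quantified with RSEM 1.3.0. TPM sums to the same total in each library, so sequencing depth is unknown and a gene's value moves with the rest of its library. The study's own test modelled counts; here TPM was tested with limma 3.58.1 in R 4.3.3.

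TPM was divided by the median ratio to the geometric mean over genes reaching a TPM of 1 throughout, giving factors of 0.956 to 0.994 in the KO and SETD2 FL libraries. Protein-coding genes and lncRNAs (GENCODE 44, matched for 58472 of 58884 genes by identifier) were kept where 2 or more libraries reached a TPM of 0.5. The 6 libraries of the second table, in 3 groups, entered 1 fit of log2(scaled TPM + 0.5) with a mean-variance trend, which takes the spread from all 6. The first table was fitted alone in the same way. The script was tested on simulated data with 200 changed genes.

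Genes named in the text are all those with an adjusted p of at most 0.05, the members of 23 gene lists with the smallest p, and genes with the largest differences at a mean TPM of at least 5; others are said to be named after their values were seen, or illustrate a list or a marker check. The comparison, its gene lists and its tests were chosen with earlier results of these data known. The alternatives comprised 14 settings of the filter, scaling, pseudocount, trend, gene types and libraries. The total rescaled without mitochondrial genes and SETD2 replaced the median-ratio scaling, so this setting changed both.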

Additional observations from a re-analysis of the deposited data

Results flagged for a closer look

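For 15 of the genes with an adjusted p of at most 0.05 in SETD2 FL against KO, the libraries of each table did not overlap and lay on the opposite side of KO in WT. They include SETD2, the introduced gene, and HSPA6, which was not tested in WT minus KO. For 12 other genes past the adjusted p the libraries lay on the same side in both tables. Among all 15933 genes tested, 2384 lay on opposite sides and 1910 on the same side. WT and KO did not overlap for 55.3% of all genes, and SETD2 FL and KO for 48.2%. All 33 genes past the adjusted p lacked overlap between SETD2 FL and KO, which selection by p favours. Their share on opposite sides therefore cannot be compared with the share among all genes. Of the 15, 6 passed the adjusted test in WT minus KO, namely HSPA1B, DNAJB1, PLK2, HMOX1, HLA-DRA and AC005759.1. The 2 tables were normalized separately, so the contrast between the 2 differences was not tested. All values are log2 differences from limma, SETD2 FL minus KO first and WT minus KO second.

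Among heat shock genes, HSPA1B had 0.54 and -0.60, DNAJB1 0.46 and -0.38, and DNAJA1 0.48 and -0.20. HSPA6 had 2.06 with SETD2 FL and was too low to be tested in the first table, at a TPM of 0.29 and 0.38 in WT and 0.46 and 0.40 in KO. AL671762.1, which overlaps HSPA1B, had 1.93 and -0.29.

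Among p53-linked genes, PLK2 had 0.85 and -0.99, PPM1D 0.56 and -0.37, and TRIAP1 0.39 and -0.14. HMOX1 had 0.87 and -0.70, and HLA-DRA 0.75 and -1.17. EIF5 had 0.64 and -0.20, ZNF268 0.70 and -0.24, and ZNF79 1.08 and -0.10. AC005759.1 was the gene with a lower value in SETD2 FL, at -1.43 and 1.29. SETD2, the introduced gene, had 5.08 and -0.11.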

How the results depend on the processing

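Of the 33 genes with an adjusted p of at most 0.05, SETD2 and GDF15 passed under all 14 alternatives, AL671762.1 under 13, HMOX1 under 9 and TP53I3 under 7. Counts of genes past both thresholds were 12 higher and 1 lower, and 28 and 5 with the adjusted p alone. Where only genes reaching a TPM of 1 throughout were kept, 5 rose at least 2-fold, and with a pseudocount of 1 this was 6, while a pseudocount of 0.1 left 0 that fell. Rescaling without mitochondrial genes and SETD2, with no median-ratio scaling, gave 56 higher with the adjusted p alone. No scaling gave 4 lower past both thresholds, and 47 higher and 11 lower with the adjusted p alone. All gene types gave 5 higher past both thresholds, and 6 higher and 1 lower with the adjusted p alone. Without the trend 0 fell, and the adjusted p alone gave 10 and 0. Without the filter the counts were 3 and 0 by either rule, with 2938 genes at an unadjusted p under 0.05. With only the 4 libraries in the fit they were 4 higher past both thresholds, and 5 and 1 with the adjusted p alone. Leaving out 1 library gave 3 to 5 higher and 0 lower by either rule, with the lone library assumed to vary like the other groups. The all gene types, filter, 4-library and leave-one-out alternatives change the genes or libraries in the fit; for the others the cause was not tested.

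Rescaling without mitochondrial genes and SETD2, in place of the median-ratio scaling, moved the median of all genes from 0.01 to 0.06. With it the median of S phase genes went from -0.03 to 0.032 and that of HEK293 lineage genes from -0.06 to 0.0029. With no scaling the median of all genes was 0.02. The histone median of 0.09 was -0.28 over genes reaching a TPM of 1 throughout, and -0.072 without KO replicate 4 (-0.072 to 0.123 with 1 library left out). The p53 median stayed between 0.31 and 0.40 and the heat shock median between 0.20 and 0.29 over all 14, while their calls ranged from 1 to 9 and from 0 to 4.

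No paired analysis was possible because SETD2 FL and KO of the second table share 1 replicate number only. In the first table the replicate block gave 827 genes higher and 442 lower in WT, against 467 and 194 without it; 2 pairs with a deviation correlation of 0.147 show no more than a shared number. There, no scaling gave 359 higher and 410 lower with the median of all genes at -0.11, and leaving out 1 library 107 to 758 higher and 27 to 435 lower.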

Other observations

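Several genes with large differences did not pass the adjusted test. AC034102.2 was at a TPM of 13.1 and 5.58 in KO and listed at 0 in both SETD2 FL libraries, with 10.0 and 0 in the SETD2 C libraries (adjusted p = 0.172 from limma). FP671120.4, FP236383.2 and FP236383.3 held identical values in every library, 16.5 and 17.5 in KO and 7.90 and 5.64 with SETD2 FL (-1.30, adjusted p = 0.139), and count as 1 measurement. FOSL1, an AP-1 subunit, had a difference of 1.05 (adjusted p = 0.113), opposite in sign to JUN at -0.47. HIST2H2BE, a histone H2B gene, had a difference of -0.88 (adjusted p = 0.0637).

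Cholesterol synthesis genes had a median of 0.08 over 23 tested members, with 5 higher and 2 lower at an unadjusted p under 0.05 and none past the adjusted test. Their single-library medians were 0.22 and -0.01, so that the 2 SETD2 FL libraries did not share a direction. Of 27 matrix metalloproteinases and inhibitors listed, 9 reached a TPM of 1 in all 4 libraries, so the filter may favour higher values. Of the 15 tested 4 had a higher and 0 a lower value at an unadjusted p under 0.05. The 18 genes of the CDK inhibitors, retinoblastoma proteins, GADD45 and BTG/TOB had 3 and 5 (16.7% and 27.8%). The 29 immediate early genes had 3 and 4 (10.3% and 13.8%) and the 35 histone genes 4 and 4 (11.4% each). The 14 HEK293 lineage genes had 2 and 2 (14.3% each), and the 3 metallothionein genes 0 and 0. Over all genes tested 8.69% were higher and 7.22% lower at this p. None of these lists held a gene past the adjusted threshold.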
